A study of Mus musculus with 2 samples.

Results

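Brain myeloid cells sense extracellular nucleotides through purinergic receptors and remove them with surface enzymes. Of the 32285 genes in the count tables, 8 were selected by symbol as the receptors and the ATP-degrading enzyme best known from microglia: P2ry12, P2ry13, P2ry6, P2rx4, P2rx7, Gpr34, Entpd1 and Adora3. All 8 symbols were found once. A further 41 genes of the same system, in 6 lists, are summarised beside them. The study asked what impairment of the Disc1 locus does to microglia, and single-cell RNA-seq was run on cells pooled from the brains of 6 males per genotype, littermates aged 23 weeks. One pool was Disc1 WT/WT; the other, Disc1 LI/LI, was homozygous for the locus impairment allele, which is not limited to microglia. The genotypes are written WT/WT and LI/LI below, and where a pair of values is given without them, WT/WT comes first. Brains of both genotypes were dissociated in actinomycin D (Act-Seq), which blocks transcription during handling, and CD45low CD11b+ cells were sorted before droplet capture. Each genotype is 1 library, so there is no replicate, no test between genotypes was possible, and all intervals below are 95% exact intervals that cover counting error only.

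P2Y receptors are G protein-coupled receptors for nucleotides, and P2X receptors are cation channels that ATP opens. P2RY12 and P2RY13 respond to ADP, P2RY6 to UDP, and P2RX4 and P2RX7 to ATP. GPR34, a relative of P2RY12 in sequence, responds to lysophosphatidylserine. ENTPD1 (CD39) removes phosphates from ATP and ADP to leave AMP, NT5E (CD73) turns AMP into adenosine, and ADORA3 is an adenosine receptor. Resting microglia are known for P2RY12, which directs their processes toward sites of ATP release, while P2RY6 is known for phagocytosis and P2RX7 for release of interleukin-1β.

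The 2 libraries held 33601957 UMIs in 7038 barcodes (WT/WT) and 47731571 UMIs in 7834 barcodes (LI/LI), where a UMI is a tag that marks 1 captured transcript. After removal of barcodes with fewer than 200 genes or with more than 10% mitochondrial UMIs, 7032 and 7817 cells remained, with medians of 4234.5 and 4566 UMIs. Disc1 itself had 642 UMIs in WT/WT and 22 in LI/LI cells. Cells in which the 6 genes P2ry12, Gpr34, Tmem119, Siglech, Fcrls and Olfml3 gave at least 0.5% of UMIs, with S100a8 and S100a9 under 1%, were called microglia. Cells with at least 3% of UMIs from S100a8 and S100a9 were called neutrophils, and the rest other cells. The libraries differed widely in makeup although both were sorted for CD45low CD11b+ cells. WT/WT held 6180 microglia (87.9%), 116 neutrophils (1.65%) and 736 other cells (10.5%), and LI/LI held 1950 (24.9%), 3622 (46.3%) and 2245 (28.7%). These gates cut a continuous score, with 302 (WT/WT) and 210 (LI/LI) cells whose share lay within 20% of the microglia gate. The libraries shared 12 barcodes, and doublets were not removed.

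Adjacent members lie close together in the genome. In mm10, P2ry13 (chromosome 3, 59207892 to 59210882) and P2ry12 (59216272 to 59262871) are encoded on the minus strand, 5389 bases apart, inside Med12l, which is on the plus strand. P2rx7 (chromosome 5, 122643911 to 122691432) and P2rx4 (122707544 to 122729738) follow each other on the plus strand with 16111 bases between them. Gpr34 (chromosome X, 13632089 to 13640858, plus strand) lies inside Cask on the minus strand. P2ry6 is on the minus strand of chromosome 7 (100937630 to 100974649), Entpd1 on the plus strand of chromosome 19 (40612366 to 40741602) and Adora3 on the plus strand of chromosome 3 (105870858 to 105908926). Adora3 overlaps Tmigd3 on the same strand, so the assignment of its UMIs is uncertain where the 2 genes share exons. As described next, P2ry12, P2ry13 and P2rx4 were all at least 4-fold higher in microglia than in neutrophils in both libraries. Against other cells P2ry12 and P2ry13 met this rule and P2rx4 did not. The proximal promoters of these 3 genes are shown as the 250 bases before the RefSeq start of each gene (GRCm38.p6). They are written 5′ to 3′ on the strand of the gene, and capitals mark matches to AGGAAG, the core recognised by the myeloid factor PU.1 and other ETS factors, or to its reverse complement CTTCCT. The windows are chr3:59262986-59263235 for P2ry12 and chr3:59210883-59211132 for P2ry13, both on the minus strand, and chr5:122707294-122707543 on the plus strand for P2rx4.
P2ry12: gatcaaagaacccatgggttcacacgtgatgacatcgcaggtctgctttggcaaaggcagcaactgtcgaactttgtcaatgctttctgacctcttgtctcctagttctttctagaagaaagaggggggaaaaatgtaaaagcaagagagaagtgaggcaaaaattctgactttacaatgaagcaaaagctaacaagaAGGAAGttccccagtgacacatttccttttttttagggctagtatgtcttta
P2ry13: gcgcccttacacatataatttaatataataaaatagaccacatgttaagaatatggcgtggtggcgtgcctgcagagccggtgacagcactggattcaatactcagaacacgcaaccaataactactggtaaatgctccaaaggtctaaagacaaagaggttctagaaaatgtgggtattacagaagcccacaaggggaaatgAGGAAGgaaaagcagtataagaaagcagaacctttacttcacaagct
P2rx4: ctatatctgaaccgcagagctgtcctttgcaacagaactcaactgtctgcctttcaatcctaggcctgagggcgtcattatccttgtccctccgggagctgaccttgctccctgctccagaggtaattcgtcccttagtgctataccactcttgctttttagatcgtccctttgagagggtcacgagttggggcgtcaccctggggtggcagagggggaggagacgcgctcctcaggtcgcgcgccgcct
P2ry12 and P2ry13 each held 1 match and P2rx4 held 0. The 3 were chosen by their expression, and the motif does not follow it across the members. Entpd1 and P2rx7, which like P2rx4 were not at least 4-fold above other cells in both libraries, each had 1 window with a match and 1 without. Of 8 windows found for 6 of the genes, 5 held the motif, beside 29.5% of 32851 windows of all genes. A match is a description of letters, and no binding was measured here.

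Across the 3 classes, 7 of the 8 genes were at least 4-fold higher in microglia than in neutrophils in both libraries. Levels are given as CPM, the UMIs of a gene per 1000000 UMIs of the class in that library. Of 4056 genes with at least 50 CPM in a class, 13.6% met the same rule, as did 9 of 10 reference genes of microglia. Only Entpd1 did not. Against the other cells, 4 of 8 were at least 4-fold higher in both libraries, P2ry12, P2ry13, Gpr34 and Adora3, where 2.06% of 4123 genes and 6 of the 10 reference genes were. P2ry6, P2rx4, P2rx7 and Entpd1 fell short there. P2ry12 and Gpr34 belong to the gate, so their difference between classes is partly built in. This holds most against other cells, of which only 1 (WT/WT) and 4 (LI/LI) reached the microglia share. The reference genes Tmem119, Siglech, Fcrls and Olfml3 belong to the gate as well. With a gate that left P2ry12 and Gpr34 out (3394 and 1225 microglia), P2ry12 had 4275 CPM in WT/WT and 3386 in LI/LI microglia, and Gpr34 had 2658 and 2053. The same 7 genes were then called against neutrophils, and the comparison with other cells was not repeated with that gate. UMIs come from the 3′ end of transcripts and are not divided by length, so levels are compared between cells and not ranked between genes.

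**Figure D1:**
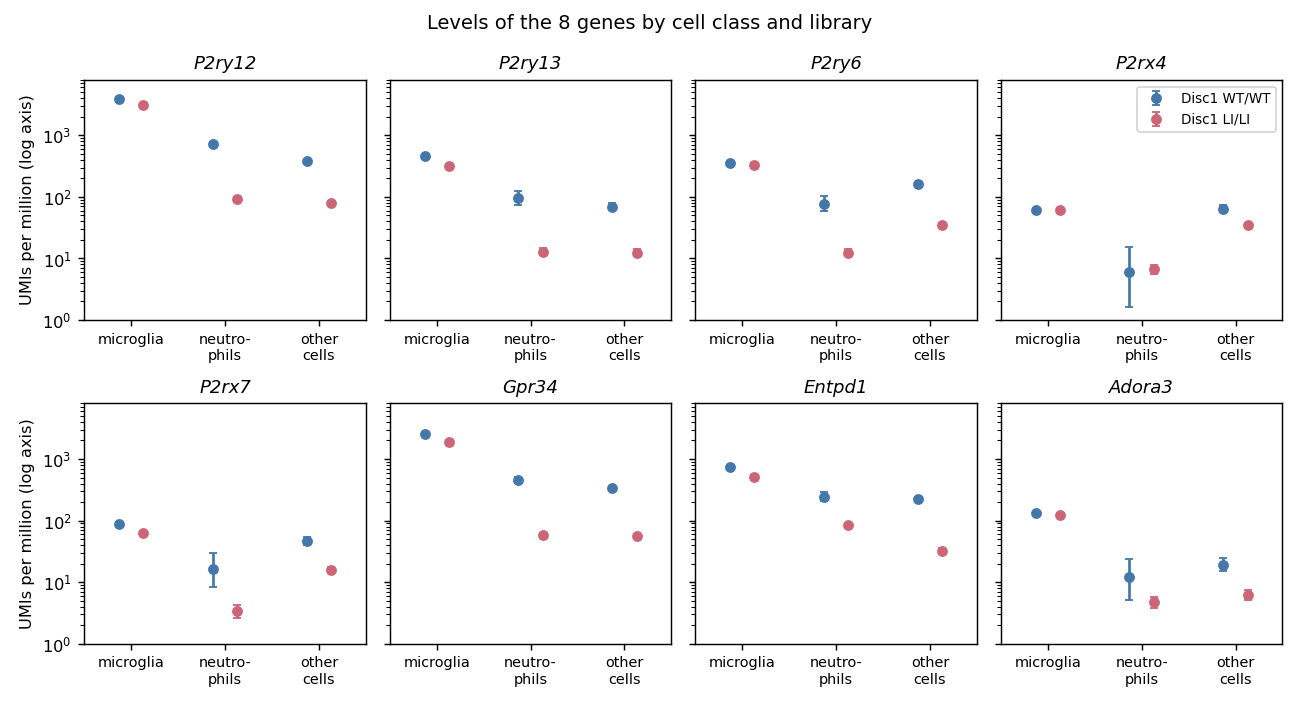
Each panel shows 1 gene, with CPM on a log axis for microglia, neutrophils and other cells of the WT/WT library (blue) and the LI/LI library (red); points are class sums and bars are 95% exact Poisson intervals. Microglia are highest in all panels but that of P2rx4, where other cells of WT/WT reach 64.2 beside 61.8 in microglia.

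The ADP receptor P2ry12 was at 3956 CPM in WT/WT microglia (3934 to 3979) and at 3112 CPM in LI/LI microglia (3074 to 3150). A P2ry12 UMI was found in 99.7% and 99.8% of these cells, at median depths of 4271 and 3787.5 UMIs. In neutrophils its level was 721 and 94.0 CPM, with a UMI in 36.2% and 10.8% of cells at median depths of 4844.5 and 4194. Nearly every microglial cell was thus positive, but so was a minority of neutrophils, which are not known for P2ry12. P2ry13, the second ADP receptor, had 463 CPM in WT/WT microglia (456 to 471) and 322 in LI/LI (310 to 335), in 80.8% and 67.0% of cells. Its level was 97.4 and 12.98 CPM in neutrophils, and 69.3 and 12.4 CPM in other cells. At 1000 UMIs per cell, P2ry13 was detected in 36.7% and 26.5% of microglia and in 6.09% and 1.11% of neutrophils.

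P2ry6, the UDP receptor, had 353 CPM in WT/WT microglia (347 to 360) and 326 in LI/LI (313 to 338), with a UMI in 73.9% and 69.4% of cells. In other cells its level was 161 and 35.5 CPM, and in neutrophils 77.9 and 12.4 CPM. It stood closer to the other cells than the ADP receptors did in WT/WT, where the other-cell level was 45.6% of the microglia level for P2ry6, 9.52% for P2ry12 and 14.9% for P2ry13.

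Against the other cells, the ATP-gated channels were the least restricted to microglia. P2rx4 had 61.8 CPM in WT/WT microglia (59.0 to 64.7) and 60.5 in LI/LI (55.2 to 66.0), and its other-cell level was 64.2 (56.1 to 73.1) and 35.1 (32.4 to 37.9). In neutrophils it had 4 UMIs in WT/WT (6.00 CPM, 1.63 to 15.4) and 144 in LI/LI (6.67 CPM, 5.63 to 7.86). Microglia and other cells of WT/WT thus overlapped for P2rx4 within counting error. P2rx7 had 88.9 CPM (85.5 to 92.4) and 62.8 CPM (57.5 to 68.5) in microglia, 46.9 and 15.7 CPM in other cells, and 16.5 and 3.38 CPM in neutrophils. A P2rx4 UMI was found in 24.2% and 21.2% of microglia and a P2rx7 UMI in 32.4% and 22.8%, which at 1000 UMIs per cell came to 6.30% and 5.79% and to 8.90% and 6.31%.

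Gpr34, the lysophosphatidylserine receptor, had 2518 CPM in WT/WT microglia (2500 to 2536) and 1915 in LI/LI (1885 to 1945), in 99.2% and 98.3% of cells. Its level was 457 and 58.4 CPM in neutrophils and 333 and 56.7 CPM in other cells. Entpd1, which starts the breakdown of extracellular ATP, had 747 CPM (737 to 757) and 512 CPM (497 to 528) in microglia, in 91.5% and 81.2% of cells. Relative to its microglia level it was higher in neutrophils than the receptors were, at 246 CPM in 52.6% of WT/WT and at 83.5 CPM in 32.5% of LI/LI neutrophils. In other cells Entpd1 was at 223 and 32.6 CPM. Adora3 had 134 CPM (130 to 139) and 125 CPM (118 to 133) in microglia, 19.2 and 6.19 CPM in other cells, and 11.99 CPM (8 UMIs) and 4.73 CPM in neutrophils.

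Microglia transcripts in neutrophil barcodes were measured with 10 reference genes of microglia (Tmem119, Siglech, Fcrls, Olfml3, Sparc, Slc2a5, Sall1, C1qa, C1qb and C1qc, of which the first 4 are gate genes). Their summed level in neutrophils was 7361 CPM in WT/WT and 1716 in LI/LI, and the level of each, as a percent of its microglia level, ranged from 15.2% to 26.8% in WT/WT and from 2.83% to 3.97% in LI/LI. P2ry12, at 18.2% and 3.02%, and Gpr34, at 18.2% and 3.05%, lay within these ranges in both libraries. P2ry6 (22.1% and 3.82%) did so too, and Adora3 lay below or within them (8.92% and 3.78%). No expression in neutrophils is read from these levels. Of the neutrophils, 9.48% in WT/WT (11 cells) and 1.57% in LI/LI (57 cells) also passed the microglia gate, and without them P2ry12 was at 329 and 53.8 CPM; free RNA and doublets cannot be told apart. P2ry13 was at 21.03% and 4.03%, the second value just above the range, with its interval across the upper edge. P2rx7 was at 18.5% in WT/WT and, from 73 UMIs, at 5.39% in LI/LI, and P2rx4 at 9.70% and 11.0%, so that only in LI/LI did both stand above the range. Entpd1 stood above it in both libraries, at 32.9% and 16.3%.

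**Figure D2:**
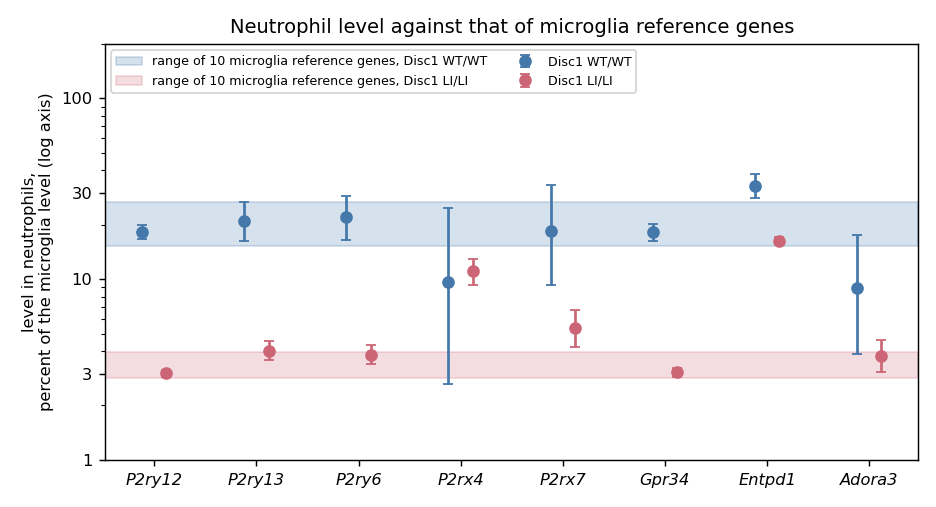
Points give the neutrophil level of each gene as a percent of its microglia level in the same library, on a log axis, with bars from the 95% exact Poisson interval of the neutrophil UMIs; shaded bands span the 10 microglia reference genes in WT/WT (blue) and LI/LI (red). Entpd1 lies above the band in both libraries, and P2rx4 and P2rx7 only in LI/LI.

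The neutrophils with no UMI of any reference gene, a subset chosen after the data were examined, held 21 cells in WT/WT and 1176 in LI/LI. Entpd1 was at 370 CPM in the former (18 UMIs, 219 to 584) and at 125 CPM in the latter (115 to 136), with a UMI in 52.4% and 33.5% of cells. P2ry12 was at 41.1 CPM (2 UMIs) and 15.8 CPM there, or 1.04% and 0.508% of its microglia level. In LI/LI, Entpd1 was thus higher in neutrophils free of microglia reference RNA than in all neutrophils. P2ry12 was lower, which the choice of these cells partly builds in. In WT/WT the 2 levels of Entpd1 overlapped within counting error. The LI/LI subset also differed in depth, with 4236650 UMIs in 1176 cells beside 21579721 in all 3622. Nt5e was at 42.0 beside 25.3 CPM there, and Pnp, described below, at 51.2 beside 161 CPM. The part of such differences in the level of Entpd1 was not tested. P2rx4 was at 3.54 CPM and P2rx7 at 0.944 CPM (4 UMIs) in the LI/LI cells of this subset, both below their levels in all LI/LI neutrophils. Nt5e, whose product takes AMP on to adenosine, was found in neutrophils and hardly in microglia, with 40.5 CPM (27 UMIs) and 25.3 CPM (546 UMIs) in the former beside 0.102 CPM (3 UMIs) and 0.245 CPM (2 UMIs) in the latter. It was named after its values were seen. Transcripts of both enzymes were thus found in neutrophils, and of Entpd1 almost without Nt5e in microglia.

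The other cells were split by the marker list of which a cell held most markers, with at least 3 detected, a scoring rule set after the data were examined. Names ending in -like refer to these lists. In border-associated macrophage-like cells, which carry Lyve1, Cbr2, Folr2 and Pf4, the P2X channels and not the ADP receptors stood out. P2rx4 was at 168 CPM (133 to 209) in 131 WT/WT cells and at 146 CPM (83.5 to 237) in 24 LI/LI cells, which is 272% and 242% of the microglia level. P2rx7 was at 130 CPM (99.8 to 167) and 119 CPM (63.2 to 203), or 146% and 189%, and P2ry6 at 344 and 347 CPM, or 97.4% and 107%. The microglia reference genes reached at most 94.5% and 71.7% here, the highest being C1qa, which macrophages share, and at most 73.2% and 31.2% without the C1q genes. P2ry12 was at 216 and 128 CPM, only 5.46% and 4.11% of the microglia level, and Gpr34 at 13.3% and 6.68%. These macrophages thus held more P2rx4 than microglia, about as much P2ry6, and little P2ry12. Entpd1 was at 361 and 237 CPM (48.4% and 46.4%), and Adora3 had 4 UMIs in WT/WT (8.40 CPM) and 0 in LI/LI (upper limit 33.7 CPM).

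**Figure D3:**
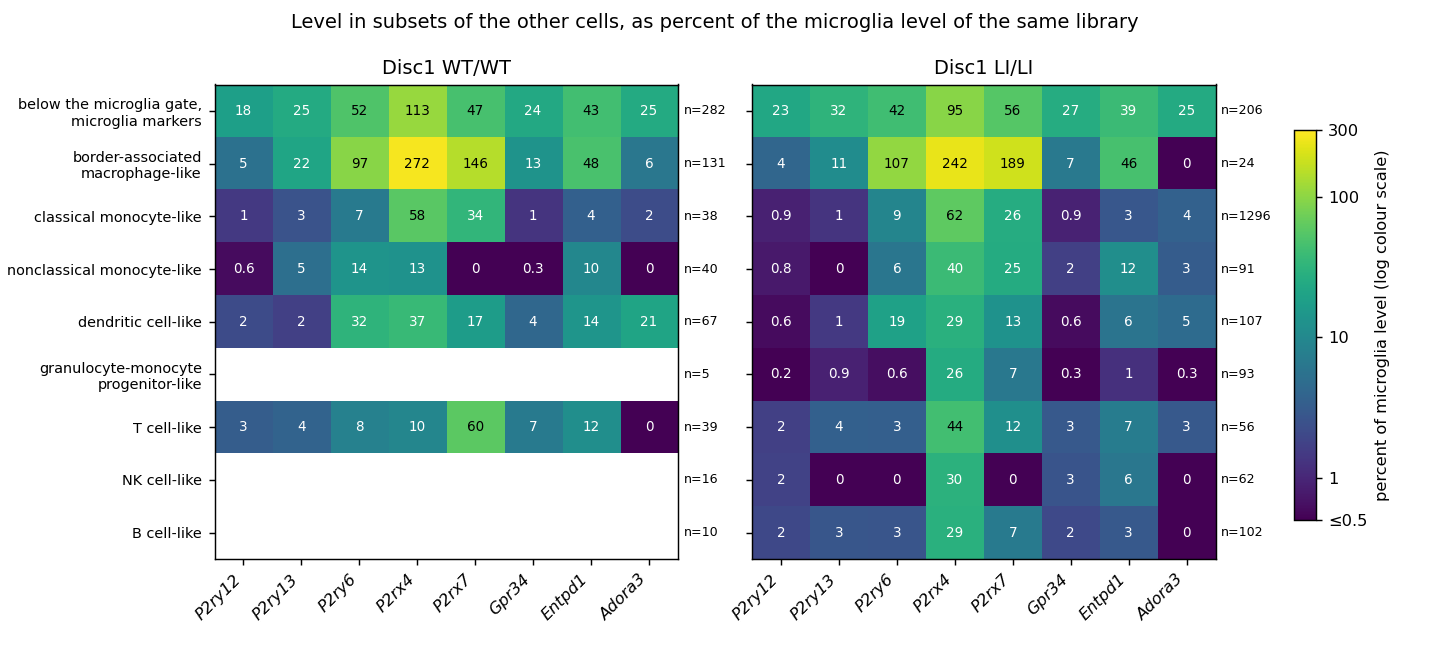
Colour and number give the level of each gene in subsets of the other cells as a percent of its microglia level in the same library, on a log colour scale, for WT/WT (left) and LI/LI (right); n is the number of cells, and subsets under 20 cells are blank. P2rx4 and P2rx7 are above 100 in border-associated macrophage-like cells of both libraries, while P2ry12 and Gpr34 stay under 30 in all subsets shown.

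In classical monocyte-like cells, marked by Ly6c2, Ccr2 and Chil3, P2rx4 was the member nearest its microglia level. It was at 35.8 CPM (12 UMIs) in 38 WT/WT cells and at 37.3 CPM (33.7 to 41.1) in 1296 LI/LI cells, 57.9% and 61.6% of microglia. P2rx7 followed at 29.8 and 16.6 CPM (33.5% and 26.4%) and P2ry6 at 23.9 and 29.6 CPM (6.75% and 9.09%). The microglia reference genes reached at most 2.75% and 1.55% in these cells, so the 3 receptors stood above that background in both libraries. P2ry12 (1.43% and 0.902%) and Gpr34 (1.30% and 0.926%) did not. In 67 and 107 dendritic cell-like cells P2ry6 was at 113 CPM (82.2 to 152) and 63.1 CPM (47.4 to 82.3), and P2rx4 at 23.1 CPM (9 UMIs) and 17.5 CPM (15 UMIs). Both exceeded every reference gene of their library there, as a percent of microglia (highest 26.3% and 6.69%). For both genes this excess was outside counting error in LI/LI only. In 93 granulocyte-monocyte progenitor-like cells of LI/LI, P2rx4 was at 15.6 CPM (11.0 to 21.4), while P2ry12 was at 7.39 CPM and P2ry6 at 2.05 CPM.

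Lymphoid subsets held few UMIs of the members. P2rx7 was at 52.9 CPM (9 UMIs) in 39 T cell-like cells of WT/WT and at 7.54 CPM (2 UMIs) in 56 of LI/LI, so no level is read from it. P2ry13, P2ry6, P2rx7 and Adora3 had 0 UMIs in 62 NK cell-like cells of LI/LI, with an upper limit of 17.0 CPM for each. A further 282 WT/WT and 206 LI/LI cells below the microglia gate held mostly microglia markers. They had 727 and 726 CPM of P2ry12, 18.4% and 23.3% of the gated microglia, and 69.8 and 57.5 CPM of P2rx4, 113% and 95.2%. In WT/WT the genes leading this subset were Ttr and Enpp2, although an Enpp2 UMI was found in only 1.42% of its cells, and it was left unnamed.

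Within microglia, cells differed in how many of the members were detected. Thinned to 1000 UMIs per cell, which left out 104 and 17 shallower microglia, the median cell of both libraries held UMIs of 3 of the 8 genes. At least 4 members were found in 41.3% of WT/WT and 29.3% of LI/LI microglia, and none in 0.313% and 0.414%. Among neutrophils, none was found in 58.3% and 81.8%. P2ry12 and Gpr34 are counted here and are also gate genes, so this difference between classes is partly built in. A count without them was not made. The variance of the thinned counts was 1.53 and 1.40 times their mean for P2ry12 and 1.42 and 1.21 times for Gpr34, where counting alone gives 1. For the other 6 genes in microglia it lay between 0.984 and 1.09, but with under 1 UMI per thinned cell this measure stays near 1 whatever the spread between cells. The middle 90% of WT/WT microglia ranged from 1386 to 7097 CPM of P2ry12, about a median of 3829, and those of LI/LI from 1115 to 5868, about 3010.

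Microglia with the most UMIs of a state list were compared with the others of the same library, taking the top 10% by share. The share of all genes that differ in this way was not computed, so whether the members stand out is not read from these comparisons. For the disease-associated list (11 genes such as Apoe, Cst7, Lpl and Spp1), P2ry12 was at 2983 CPM in 618 cells beside 4071 in the rest of WT/WT, and at 2505 beside 3186 in 195 cells of LI/LI. The log2 ratios were -0.45 (-0.48 to -0.42) and -0.35 (-0.41 to -0.28). P2ry13 had log2 ratios of -0.42 and -0.19, and Entpd1 of -0.32 and -0.24, with intervals below 0 in both libraries. Adora3 had the lowest ratio in WT/WT, at -0.59 (-0.77 to -0.42), and was at -0.26 (-0.59 to 0.043) in LI/LI. P2ry6 was at -0.25 (-0.34 to -0.15) and -0.16 (-0.35 to 0.029). P2rx4 went the other way, at 70.8 beside 60.7 CPM and at 88.0 beside 57.1 CPM, with log2 ratios of 0.22 (0.012 to 0.43) and 0.62 (0.26 to 0.98). The 10 markers of border-associated macrophages moved with this list, at 1251 CPM in the top cells and 172 CPM in the rest of WT/WT, and at 462 and 166 CPM in LI/LI. A UMI of at least 1 of them was found in 59.7% and 49.2% of these WT/WT cells and in 44.1% and 43.2% of those of LI/LI. An alternative added after the data were examined left out the cells that held one and drew the top 10% anew. It set 307 cells beside 2765 in WT/WT and 110 beside 995 in LI/LI, so intervals are wider. The ratio of P2ry12 was then -0.25 (-0.29 to -0.20) and -0.30 (-0.39 to -0.22). P2ry13 (-0.33 and -0.20) and Entpd1 (-0.33 and -0.13) then had intervals below 0 in WT/WT only. P2rx4 was at 0.30 (-0.027 to 0.62) and 0.30 (-0.26 to 0.83), from 92 and 34 UMIs in the top cells, no longer outside counting error. In WT/WT its ratio was not smaller than over all microglia, and the part of the lower counts in this was not tested. Gpr34, at -0.21 and -0.10 in all microglia, was then at -0.030 (-0.084 to 0.023) and 0.0017 (-0.10 to 0.10).

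**Figure D4:**
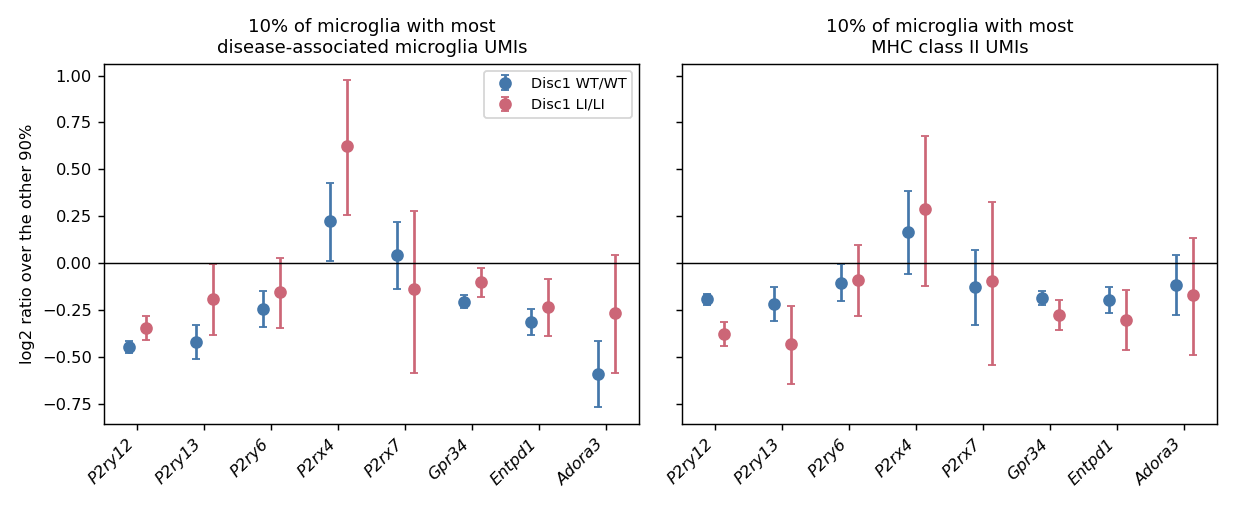
Points give the log2 ratio of CPM in the 10% of microglia with the highest share of disease-associated (left) or MHC class II (right) list UMIs over the other microglia of the same library, with 95% exact intervals for counting error. P2ry12, P2ry13, Gpr34 and Entpd1 lie below 0 in both libraries and both panels, and P2rx4 above 0 with intervals clear of 0 only on the left. Cells that held a border-macrophage marker are included here. Without them, with fewer cells and wider intervals, only P2ry12 keeps intervals below 0 in both libraries and both panels. The share of all genes that meet this rule was not computed.

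For the MHC class II list the same 4 genes, P2ry12, P2ry13, Gpr34 and Entpd1, were lower in the top cells of both libraries with intervals below 0, but 3 of them not without the cells that held a border marker. P2ry12 had log2 ratios of -0.19 (-0.22 to -0.16) and -0.38 (-0.44 to -0.31), which were then -0.070 (-0.12 to -0.025) and -0.26 (-0.35 to -0.17). Markers of border-associated macrophages were higher here as well, at 651 beside 248 CPM and at 401 beside 174 CPM. Without the cells that held one, the top groups were 307 and 110 cells and intervals were wider. P2ry13 in WT/WT was then at -0.079 (-0.21 to 0.053), Gpr34 in LI/LI at -0.074 (-0.19 to 0.035) and Entpd1 in LI/LI at -0.15 (-0.37 to 0.071). For the interferon list P2ry12 (-0.17 and -0.18) and Gpr34 (-0.17 and -0.16) were lower in both libraries with intervals below 0, while border markers were at 715 beside 239 CPM in WT/WT and at 184 beside 199 CPM in LI/LI. Without the cells that held one, Gpr34 was at -0.14 and -0.12, still below 0, and P2ry12 at -0.10 in WT/WT and at -0.047 (-0.14 to 0.042) in LI/LI. For the immediate early list P2ry12 (-0.20 and -0.29) and Entpd1 (-0.11 and -0.17) were lower, and P2ry12 remained so without those cells (-0.18 and -0.27), whereas Entpd1 in WT/WT was at -0.082 (-0.18 to 0.019). For the cell cycle list P2ry12 was lower (-0.14 and -0.090), and without those cells it was at -0.12 and at -0.028 (-0.11 to 0.057). P2ry12 is a gate gene, and since all cells compared had passed the same gate, its share of gate UMIs was not held fixed. Of the 5 lists, P2ry12 was lower in both libraries with intervals below 0 in all 5 over all microglia, and in the disease-associated, immediate early and MHC class II lists without cells that held a border marker. How many of all genes would meet the same rule was not computed, so these counts are not set against a background.

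Between genotypes, all 8 genes had lower CPM in LI/LI microglia, 3 of them not with TMM scaling, and none was lower by 1.5-fold. Of 3556 genes with at least 50 CPM, 13.1% were at least 1.5-fold lower and 1.27% at least 1.5-fold higher. The log2 ratio was -0.35 (-0.37 to -0.33) for P2ry12 and -0.39 (-0.42 to -0.37) for Gpr34. For P2ry13 it was -0.52 (-0.59 to -0.46) and for Entpd1 -0.54 (-0.59 to -0.50), the largest differences of the 8 and close to 1.5-fold. P2rx7 was at -0.50 (-0.64 to -0.36). The remaining 3 were near 0 and turned above it with TMM scaling, P2ry6 at -0.12 (-0.18 to -0.057), Adora3 at -0.10 (-0.21 to -0.0050) and P2rx4 at -0.032 (-0.18 to 0.11). Thus 5 genes were lower by 1.27- to 1.46-fold and 3 by 1.09-fold or less, or not at all with TMM scaling.

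These ratios depend on the scale. The median of all 3556 genes was -0.12, and TMM scaling, which equalises the bulk of genes, moved it to 0.031. TMM scaling turned the direction of P2ry6 (0.013), Adora3 (0.027) and P2rx4 (0.10), and Adora3 was at 0.0033 with cells thinned to 1000 UMIs. Relative to the median of all genes, P2ry12 (-0.22), P2ry13 (-0.40), P2rx7 (-0.38), Gpr34 (-0.27) and Entpd1 (-0.42) were below it with every one of 12 settings, and P2rx4 (0.093) above it with every one. P2ry6 (0.0055) and Adora3 (0.020) lay at the median and changed sides between settings. The median over the 8 genes was -0.37, or -0.25 relative to all genes.

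**Figure D5:**
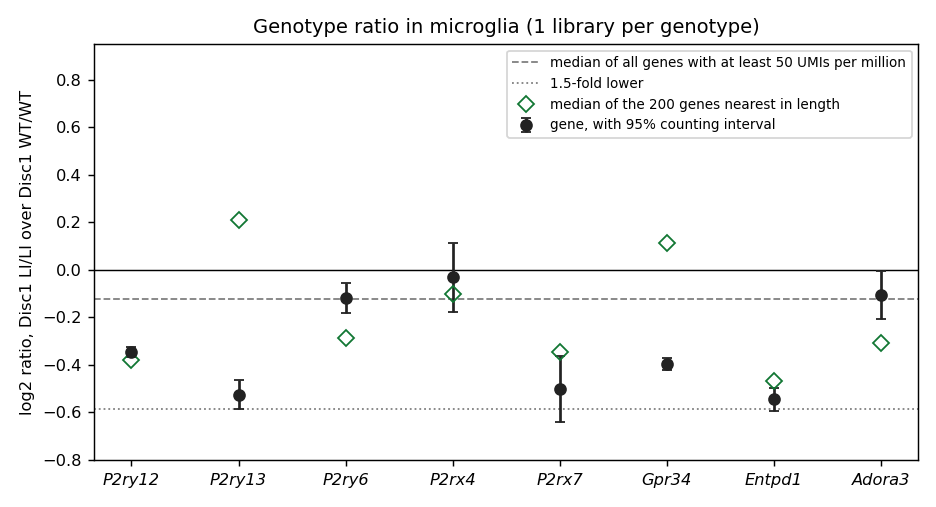
Filled points give the log2 ratio of CPM in microglia, LI/LI divided by WT/WT, with 95% exact intervals for counting error; open diamonds give the median ratio of the 200 genes nearest in length, the dashed line the median of all genes (-0.12) and the dotted line 1.5-fold lower. P2ry13 and Gpr34, the shortest genes, lie below their diamonds by the widest margin; P2ry6, P2rx4 and Adora3 lie near 0 and turn above it with TMM scaling.

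Longer genes had lower ratios between these libraries, so each member was set beside the 200 genes nearest in length from start to end. P2ry12 (46600 bases) at -0.35 was near the median of such genes, -0.38, and Entpd1 (129237 bases) at -0.54 near -0.47. P2rx7 (47522 bases) at -0.50 lay below a median of -0.35. The shortest members differed most from genes of their length, P2ry13 (2991 bases) at -0.52 beside a median of 0.21, and Gpr34 (8770 bases) at -0.39 beside 0.11. P2ry6 (-0.12 beside -0.29), Adora3 (-0.10 beside -0.31) and P2rx4 (-0.032 beside -0.10) lay above theirs. The direction of the 10 microglia reference genes was mostly the other way, with 8 of 10 above 0 and a median of 0.23. Neutrophil reference transcripts were at 42.4 CPM in WT/WT and 1295 CPM in LI/LI microglia, and Malat1, a nuclear RNA, was at 28659 and 28707 CPM. Genotype, library and pool cannot be told apart with 1 library each.

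In the other classes the members with enough UMIs were lower in LI/LI by far more. In neutrophils the 6 genes with at least 10 UMIs in both libraries were all at least 1.5-fold lower, where 35.3% of 2431 genes were, with log2 ratios from -2.97 (Gpr34) to -1.56 (Entpd1). This rule left out P2rx4 (4 UMIs in WT/WT), which was not lower at 6.00 and 6.67 CPM, and Adora3 (8 UMIs in WT/WT), at 11.99 and 4.73 CPM. Without the neutrophils that also passed the microglia gate, an alternative added after the data were examined, 5 genes had enough UMIs and all 5 were at least 1.5-fold lower, from -2.77 (Gpr34) to -1.41 (Entpd1), where 31.1% of 2286 genes were. In other cells all 8 were at least 1.5-fold lower, where 28% of 3254 genes were, from -2.78 (Entpd1) to -0.87 (P2rx4). The 10 microglia reference genes moved with them, all 10 lower in both classes, with medians of -2.18 and -2.27, and their part in the members' ratios was not tested. P2rx4 was at 168 and 146 CPM in border-associated macrophage-like cells, at 35.8 and 37.3 CPM in classical monocyte-like cells and at 23.1 and 17.5 CPM in dendritic cell-like cells, with overlapping intervals in each. In the unassigned cells it was at 52.9 CPM (32.8 to 80.9) and 25.6 CPM (17.7 to 35.7). In nonclassical monocyte-like and T cell-like cells WT/WT held 1 UMI each, against 6 and 7 UMIs in LI/LI. Of the other cells, border-associated macrophage-like cells made up 17.8% in WT/WT and 1.07% in LI/LI, and classical monocyte-like cells 5.16% and 57.7%.

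Of the 41 further purinergic genes, 5 had no UMI in any class and 9 had at least 10 CPM in microglia of both libraries. In microglia 17 had at least 10 UMIs in both libraries, of which 1, Adk, was at least 1.5-fold lower in LI/LI (52 UMIs, log2 -0.68, -1.14 to -0.25) and none was higher. Adk, adenosine kinase, was named after its values were seen. Their median was -0.27, with 13 below 0 and 4 above. None of the 5 other P2X subunits, 9 other P2Y receptors and 3 other adenosine receptors reached 50 CPM in any class. Of the 6 genes of adenosine handling, 3 reached 50 CPM in a class. Pnp, which cleaves inosine made from adenosine, was at 420 CPM (413 to 428) in WT/WT and 527 CPM (512 to 543) in LI/LI microglia, a log2 ratio of 0.33. Slc29a1, the plasma membrane nucleoside transporter ENT1, was at 90.9 and 108 CPM, with a ratio of 0.25 (0.14 to 0.36), and Slc29a3, a lysosomal transporter, at 332 and 237 CPM, with a ratio of -0.49 (-0.56 to -0.42). Pnp and Slc29a1 thus lay above the median of all genes (-0.12) and Slc29a3 below it.

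Of ATP release and coupled channels, Kcnk13, the THIK-1 potassium channel that P2RY12 signalling opens in microglia, had 62.4 and 59.0 CPM in microglia, a log2 ratio of -0.082 (-0.23 to 0.063). Kcnk6, a channel of the same family linked to P2RX7, had 104.5 and 86.8 CPM, a ratio of -0.27 (-0.39 to -0.15). Outside microglia, Enpp2 (autotaxin) reached 432 CPM in other cells of WT/WT, but in 9 cells (1.22%) of 736, beside 3.34 CPM in LI/LI. Adora2b, an adenosine receptor not seen in microglia beyond 2 UMIs per library, was at 41.0 CPM (37.3 to 45.1) in classical monocyte-like and at 45.5 CPM in dendritic cell-like cells of LI/LI. Like Nt5e, it was named after its values were seen.

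Over 17 combinations of library and cell class or subset with at least 50 cells, the genes most like each member were found by Pearson's r of log2(CPM + 1) among about 5658 genes with at least 50 CPM in one of them. These points share 2 libraries and their depths, so r is a description. P2ry12 and Gpr34 both had Plxdc2 among the genes most like them (r of 0.97 for both), P2ry13 was most like Rilpl1 and Tanc2 (0.97 for both), and Entpd1 like Lpcat2 and Slco2b1 (0.97 for both). P2ry6 was most like Aif1 (0.96) and Tbxas1 (0.95), both expressed by macrophages at large. P2rx7 was most like Ctsb (0.96) and Exoc5 (0.95), and Adora3 like Fbrsl1 (0.94) and Rtn1 (0.93). P2rx4 had the weakest likeness, with 2610001J05Rik at 0.90 and Cyp20a1 at 0.87.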

How the data were processed

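Single-cell RNA-seq was made from CD45low CD11b+ cells of 2 pools of 6 brains, 1 library per genotype, with droplet capture of 3′ ends. The authors deposited gene-by-barcode count matrices of UMIs; per the file headers these came from Cell Ranger 6.1.2, and the submitters' processing notes also name STAR, Seurat 3.0.1 and mm10. Whether intronic reads were counted is not given in the sources used here. The study's methods name more than one version of the capture kit without saying which library had which, so kit and genotype cannot be told apart.

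From the counts, cells were filtered (at least 200 genes, at most 10% mitochondrial UMIs), placed in 3 classes by the gates given above, and summed per class and library. Libraries held 33601957 and 47731571 UMIs. No statistical test was possible, since each genotype has 1 library. Levels carry exact Poisson, shares exact binomial, and ratios Clopper-Pearson intervals, all 95% and for counting error only. Ratios were taken where both libraries had at least 10 UMIs, and the background over genes with at least 50 CPM. For shares, cells were also thinned to 1000 UMIs with a fixed seed, leaving out shallower cells. No doublet caller was run; an alternative left out the 5% of cells with the most UMIs. Subsets needed at least 3 markers and the most of 11 lists of markers, and are described from 20 cells, with at least 50 in 1 library. Lengths and positions are from GENCODE M21, with a length for 32158 of 32285 genes.

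All 8 members were named; the other purinergic genes were named where they reached 50 CPM in a class, and 2 genes per member by likeness, of which 1 gene is not reported here. The members and lists were chosen with earlier results of these data known. Alternatives were the cell filter, the gates, scaling (TMM, edgeR 4.0.16 in R 4.3.3), means over cells, thinning and totals without hemoglobin, mitochondrial and S100 genes. The scripts were tested on simulated data and ran under matplotlib 3.10.9, scipy 1.17.1, numpy 2.4.6, pandas 2.3.3 and Python 3.11.15.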

Additional observations from a re-analysis of the deposited data

Results flagged for a closer look

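Slc29a1, the nucleoside transporter ENT1, had log2 ratios of LI/LI to WT/WT of opposite sign between cell classes. The ratio was 0.25 in microglia (0.14 to 0.36, from 2670 and 882 UMIs), -2.02 in neutrophils (-2.75 to -1.19, from 17 and 136 UMIs) and -1.26 in other cells (-1.47 to -1.03). With 1 library per genotype the difference between classes was not tested. The summed microglia reference genes, at 7361 and 1716 CPM in neutrophils and at 15441 and 2629 CPM in other cells, moved in the same direction as Slc29a1 in those classes, and their part in it was not tested.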

How the results depend on the processing

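Over 11 alternatives, the ratios between genotypes of the 8 genes in microglia gave 88 values, 84 below 0 and 4 above. P2ry6 (0.013), Adora3 (0.027) and P2rx4 (0.10) turned above 0 with TMM scaling, and Adora3 (0.0033) with cells thinned to 1000 UMIs. TMM scaling also moved the median of all genes, to 0.031, and for thinning the cause was not tested. The median of the 8 genes, -0.37, was -0.30 with a microglia gate of 1%, -0.42 with a gate of 0.3% and -0.24 with TMM scaling. With the gate of 0.3%, 1 gene, Entpd1 (-0.59), was at least 1.5-fold lower, where 0 were otherwise. The count of genes at least 4-fold higher in microglia than in neutrophils was 7 with the other alternatives and 5 with thinned cells, where P2rx4 and P2rx7 were not called. This rule takes a neutrophil level of at least 3 UMIs, and only 115 thinned neutrophils were left in WT/WT. At their microglia levels P2rx4 and P2rx7 could not reach 4-fold there, whatever their level in neutrophils. Without cells holding a border-associated macrophage marker, an alternative added after the data were examined, Gpr34 in LI/LI microglia high in disease-associated genes was at 0.0017. The same alternative, with fewer cells and wider intervals, took intervals across 0 for genes of every state list, as given with them. The other added alternatives left out neutrophils over the microglia gate and those with microglia reference UMIs. No paired analysis was possible because each genotype is 1 library. Depth limits P2rx4, P2rx7 and Adora3 most, in neutrophils and in subsets under 100 cells.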

Other observations

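Other genes of the purinergic lists were found in cell types other than microglia. Pnp, at 420 and 527 CPM in microglia, was at 403 CPM (337 to 476) and 404 CPM (392 to 416) in classical monocyte-like cells of WT/WT and LI/LI, and at 461 CPM in the 93 granulocyte-monocyte progenitor-like cells of LI/LI. Slc29a1 was higher in border-associated macrophage-like cells of WT/WT, at 157 CPM (124 to 197), than in microglia, at 90.9 CPM. In LI/LI it was at 174 CPM (104 to 271, 19 UMIs) beside 108 CPM in microglia, not outside counting error. Gpr171 and Gpr174, receptors related to the P2Y family, were found in lymphoid subsets. Gpr174 was at 112 CPM (19 UMIs) in T cell-like cells of WT/WT and at 37.7 CPM (10 UMIs) in those of LI/LI, and at 92.1 CPM (20 UMIs) in NK cell-like cells of LI/LI. Gpr171 was at 63.1 CPM (47.4 to 82.3) in dendritic cell-like cells of LI/LI and at 48.9 CPM (19 UMIs) in those of WT/WT. Nt5e had 10 UMIs in T cell-like cells of each library, at 58.8 and 37.7 CPM. Gpr171, Gpr174 and Nt5e were named after their values were seen.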
